A study of Mus musculus with 8 samples.

Results

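Chemokines and their receptors were read out in whole pancreas from 8 mouse samples with cerulein-induced acute pancreatitis. Members were the genes whose symbols begin with the Ccl, Cxcl, Cx3cl or Xcl root and a number (ligands), or are a Ccr, Cxcr, Cx3cr, Xcr or Ackr symbol (receptors). The rule found 54 members among 16888 genes, 33 ligands and 21 receptors. Of these, 19 ligands and 5 receptors entered the test. Another chemokine-binding gene, Ackr1, was not analysed here.

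The 4 samples named CKO1 to CKO4 came from mice whose genotype is given as a myeloid-specific Anxa1 knockout. The 4 samples named WT1 to WT4 came from Anxa1 flox/flox mice, so these controls carry the floxed allele and are not plain wild type. All 8 had repeated injections of cerulein, a cholecystokinin analog that makes acinar cells secrete and digest the tissue around them. No uninjected pancreas was analysed here, so every level is one during pancreatitis. The labels name neither the Cre driver nor the age or sex of the mice, nor the number and timing of injections. They do not say whether replicates were separate animals, so p-values measure only the spread between these samples. The question was which chemokine transcripts differ in the inflamed pancreas when myeloid cells lack annexin A1, a protein released by myeloid cells that limits leukocyte recruitment.

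Chemokines are small secreted proteins that steer leukocytes along gradients by binding receptors coupled to G proteins on the cell surface. CC ligands mainly recruit monocytes, macrophages, eosinophils and lymphocytes, while CXC ligands with an ELR motif recruit neutrophils. Atypical receptors bind chemokines without this signalling and clear them from the tissue. In acute pancreatitis, injured acinar cells, stroma and arriving macrophages are all known sources of chemokines.

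Levels are RPKM, reads scaled to the length of the gene and to the total of the library. The gene lengths, recovered from the values, were 0.291 to 2.85 times the annotated exon length over the members (median 0.919). Ranks between genes and a cut at 1 RPKM depend on the length used, so comparisons between genes are rough. Libraries held 30469002 to 34359802 reads, and acinar enzymes took 54.7% to 63.6% of them. The acinar marker sum was 319005 to 366575 RPKM in every library, as the pancreas label implies. Anxa1 itself averaged 5.48 ± 1.11 RPKM in the CKO libraries and 9.98 ± 3.33 RPKM in the WT libraries (SD, n = 4), a limma adjusted p of 0.0417. That call was kept without CKO4 or WT3 and lost without any other single library (adjusted p up to 0.108). It was also lost after median centring (0.0899), with totals without acinar enzymes (0.0784), with limma-voom (0.0595) and without the filter (0.0932). WT2 stood apart, with B and plasma cell markers summing to 13.7 RPKM, T and NK cell markers to 4.18 RPKM and adipocyte markers to 141.3 RPKM. The other libraries held at most 4.67, 1.46 and 39.2 RPKM of these lists. CKO1 had the lowest monocyte and macrophage marker sum, 192.1 RPKM, against 307.8 to 385.3 RPKM in the other CKO libraries and 343 to 664 RPKM in WT. Lyz2 alone made up most of this sum in every library (109.3 RPKM in CKO1, 434.3 RPKM in WT2). Genes induced within minutes by stress or handling summed to 275.7 to 409.7 RPKM in CKO and 140.5 to 195.5 RPKM in WT. In limma 5 of 9 tested were called higher in CKO and 0 lower, against 1.42% and 5.74% of all tested genes. Jun was the 1 gene of the 9 with a log2 change below 0 (-0.48, limma adjusted p 0.102). Every CKO library lay below every WT library for Jun. The part of these differences in the results below was not tested, except where values are given.

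The 5 members that passed the test were all lower in CKO, and none was higher. They were the ligands Ccl6, Ccl9, Ccl22 and Ccl24 and the receptor Ccr2, which belong to the CC branch. Among all 8513 tested genes, 610 (7.17%) passed, 489 lower (5.74%) and 121 higher (1.42%). That split depended on the scaling, with 267 lower and 305 higher after median centring, and 394 lower and 239 higher with totals without acinar enzymes. The test was limma on log2(RPKM + 1), with Benjamini-Hochberg adjustment over all tested genes and a threshold of 0.05. Log2 changes are CKO minus WT on this scale, and they understate changes of genes near 1 RPKM.

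At an unadjusted p under 0.05, 8 ligands and 3 receptors were lower and 0 were higher, with 1931 of all tested genes lower (22.7%) and 392 higher (4.6%). The log2 change was below 0 in 20 of the 24 tested members and in 5991 of all tested genes (70.4%). Its median was -0.42 over the tested members, -0.39 for ligands, and -0.12 over all tested genes. Every CKO library lay below every WT library for 6 members (Ccl9, Ccl22, Ccl24, Cxcl13, Ccr1 and Ccr2), and for 1380 of all tested genes (16.2%). For 0 members did every CKO library lie above every WT library, against 2.46% of all tested genes. The 30 untested members are not part of these counts.

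Without the filter on low values, which raised the number of tests to all 16888 genes, none of the 5 calls held, with adjusted p-values of 0.0645 to 0.0961. With limma-voom on the recovered reads only Ccl9 (0.0399) and Ccr2 (0.0484) held. With WT2 and WT3 left out together, none of the 5 was called (0.117 to 0.25), Cxcl13 was the 1 member past the threshold, and 83 genes passed in all. This omission was chosen after the data were seen, and it removes the highest libraries for Cxcl13. In bulk tissue, fewer cells that make a transcript and less of it per cell cannot be told apart.

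**Figure D1:**
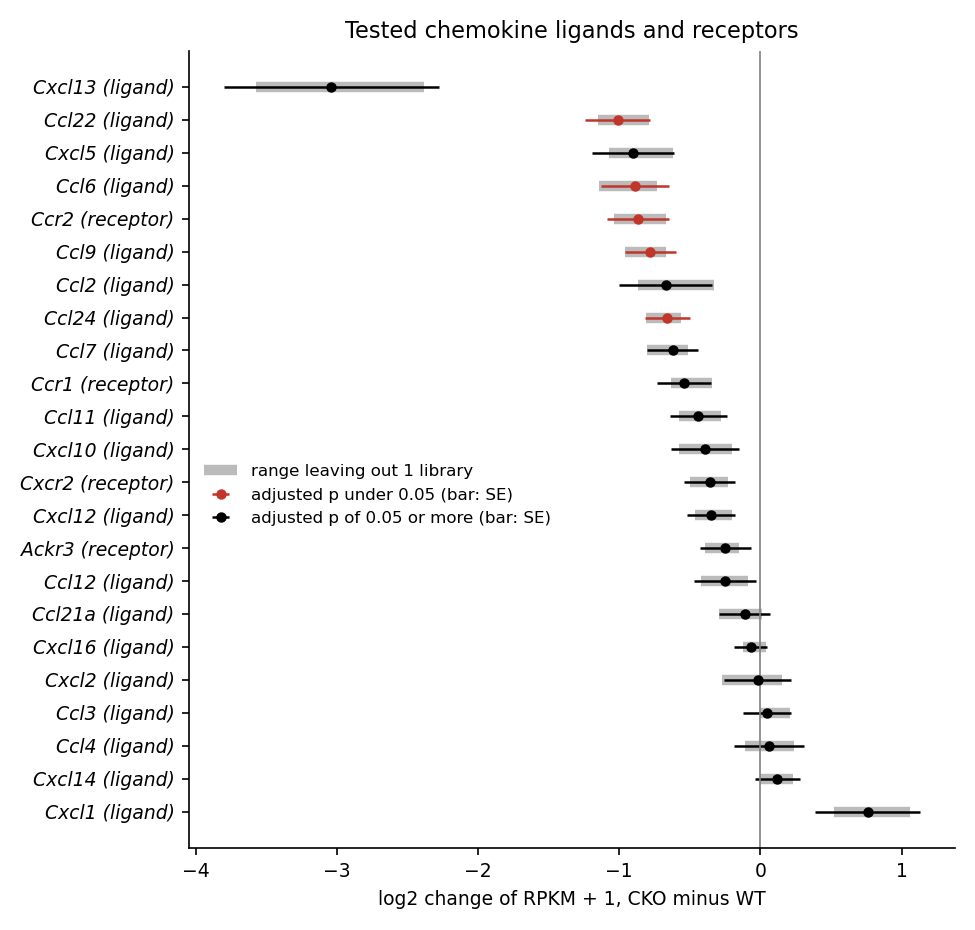
Log2 change of RPKM + 1 (CKO minus WT) for tested members; points are limma estimates, thin bars their SE, grey bars the range when 1 library is left out, and red marks an adjusted p under 0.05. Most points lie left of 0, from -3.04 for Cxcl13 to 0.76 for Cxcl1, and the 5 red points are all on the left.

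The macrophage inflammatory proteins (MIP) and related CC ligands included the abundant Ccl6 and Ccl9, and both were lower in CKO. Ccl6 and Ccl9 are rodent CC chemokines made mainly by myeloid cells, and both act on CCR1, a receptor of monocytes and neutrophils. Ccl6 (chromosome 11, 83587882 to 83593087, minus strand of mm10) was at 19.4, 21.4, 40.1 and 18.2 RPKM in CKO1 to CKO4 and at 37.9, 62.9, 41.4 and 39.7 RPKM in WT1 to WT4. CKO3 reached the WT range, and the other 3 CKO libraries lay well below it. The means were 24.8 ± 10.3 and 45.5 ± 11.7 RPKM (SD, n = 4), 1.83-fold higher in WT, with a log2 change of -0.89 ± 0.24 (SE) and a limma adjusted p of 0.0469. Ccl9 (chromosome 11, 83572919 to 83578636, minus strand) was at 12.8, 15.5, 24.2 and 15.6 RPKM in CKO and at 26.8, 36.8, 25.1 and 29.6 RPKM in WT. The groups did not overlap, although CKO3 came close to WT3. The WT mean was 1.74-fold the CKO mean, with a log2 change of -0.78 ± 0.18 and a limma adjusted p of 0.0257.

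Both calls depended on which libraries entered. Ccl6 kept its call only without CKO3 (limma adjusted p 0.00467), and without any other library its adjusted p was 0.0781 to 0.113. Ccl9 lost its call without CKO2 (0.0701), CKO4 (0.0715), WT1 (0.0562), WT2 (0.0637) or WT4 (0.0647), with log2 changes of -0.96 to -0.67 over all 8 omissions. Per 100 RPKM of summed monocyte and macrophage markers, Ccl6 was 5.92 to 10.4 RPKM in CKO and 8.13 to 11.1 RPKM in WT, and Ccl9 4.51 to 6.65 and 5.55 to 7.82 RPKM. On that scale the groups overlapped for both. Lyz2 makes up most of the marker sum, so here and below the scale mainly follows this gene.

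Ccl6 and Ccl9 are neighbours, with 9245 bases between them on the same strand. Their upstream sequences are shown because the genes were low in the same libraries. Each is the 250 bases before the RefSeq start (GRCm38.p6), read 5′ to 3′ on the strand of the gene. Ccl6 is chr11:83593088-83593337 and Ccl9 chr11:83578637-83578886, both minus strand. No capitals appear because neither window held any of the 4 motifs searched on both strands: the cores of kappaB (GGGANNTTC) and ISRE (GAAANNGAA) sites, a PU.1 site (GAGGAAGT) and an AP-1 site (TGAGTCA).
Ccl6: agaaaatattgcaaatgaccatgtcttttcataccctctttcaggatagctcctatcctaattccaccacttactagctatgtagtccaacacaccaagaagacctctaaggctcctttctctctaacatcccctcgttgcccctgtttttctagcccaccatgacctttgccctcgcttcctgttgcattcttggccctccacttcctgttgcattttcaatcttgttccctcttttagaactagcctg
Ccl9: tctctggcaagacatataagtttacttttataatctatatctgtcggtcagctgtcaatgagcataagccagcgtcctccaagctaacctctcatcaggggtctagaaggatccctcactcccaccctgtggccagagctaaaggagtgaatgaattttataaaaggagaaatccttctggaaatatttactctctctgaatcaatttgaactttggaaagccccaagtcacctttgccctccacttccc

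The other ligands of this group were scarce and passed no test. Ccl3 and Ccl4, macrophage inflammatory proteins that draw monocytes and T cells, had group means of 1.07 ± 0.562 and 1.85 ± 0.815 RPKM in CKO and 0.937 ± 0.168 and 1.78 ± 0.961 RPKM in WT (SD, n = 4). Their log2 changes were 0.05 and 0.06, within the spread between libraries (limma adjusted p 0.871 and 0.911), and that of Ccl4 turned to -0.11 without CKO4. Ccl5, a T cell and macrophage chemokine, was below the filter, at 0.055, 0.328, 0.881 and 0.952 RPKM in CKO and 0.649, 5.15, 1.32 and 2.65 RPKM in WT. Its highest library was WT2 (88 reads), the library with the highest T and NK cell marker sum, and the groups overlapped. Ccl8, a relative of Ccl2, was at 0.229, 0.057, 0.459 and 0.682 RPKM in CKO and at 0.123, 3.72, 0.501 and 0.771 RPKM in WT, again highest in WT2 (61 reads). Summed over the 6 ligands, the group reached 45.6 ± 15.9 RPKM in CKO and 81.5 ± 20.5 RPKM in WT, with CKO3 (69.2 RPKM) just below WT1 (69.3 RPKM).

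**Figure D2:**
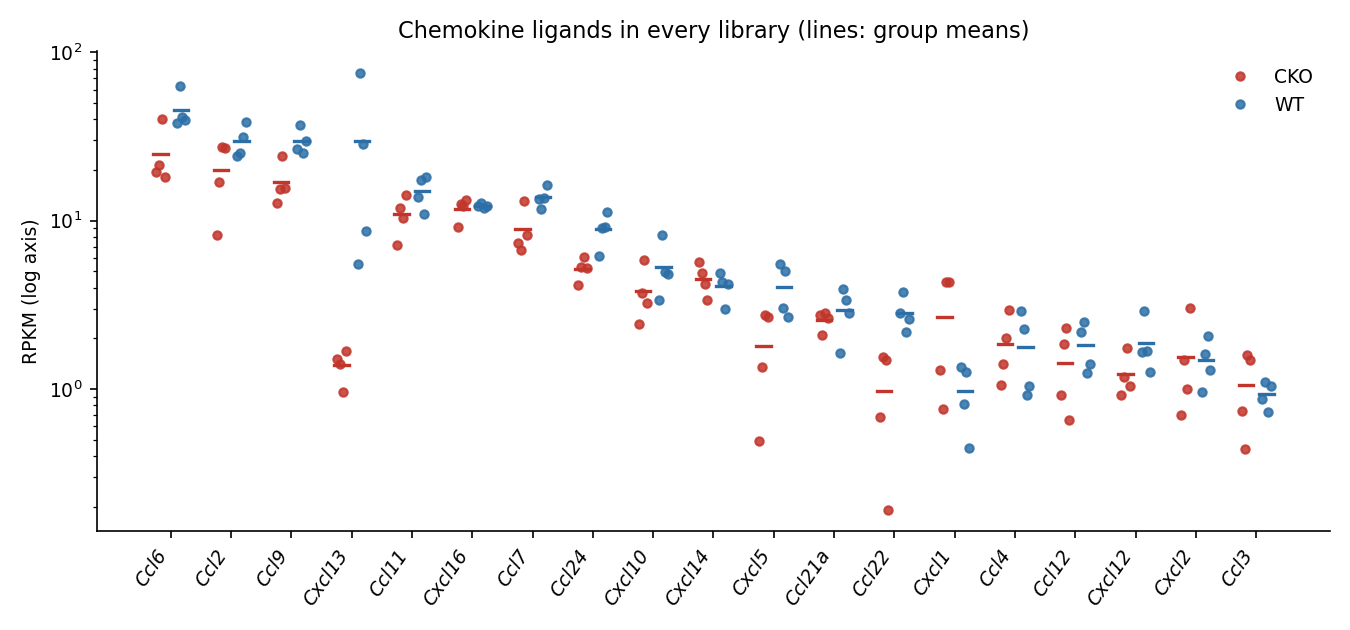
RPKM (log axis) of the 19 tested ligands in every library, ordered by mean level; each point is a library, red for CKO and blue for WT, and lines are group means. Ccl6, Ccl2 and Ccl9 lead the order, Cxcl13 spans 5.49 to 75.8 RPKM in WT and 0.958 to 1.69 RPKM in CKO, and Cxcl1 is the ligand whose CKO mean lies farthest above its WT mean.

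The CCR2 axis recruits inflammatory monocytes from blood, and here its receptor passed the test while its 3 ligands did not. Ccr2 (chromosome 9, 124101950 to 124113557, plus strand), the receptor of inflammatory monocytes, was at 2.12, 4.03, 5.67 and 3.70 RPKM in CKO1 to CKO4 and at 7.03, 10.7, 7.19 and 6.18 RPKM in WT1 to WT4. The groups did not overlap, with CKO1 lowest and WT2 highest. The WT mean (7.76 ± 1.98 RPKM, n = 4) was 2.00-fold the CKO mean (3.88 ± 1.46 RPKM), with a log2 change of -0.87 ± 0.22. Per 100 RPKM of monocyte and macrophage markers, Ccr2 spanned 1.1 to 1.47 in CKO libraries and 1.27 to 2.05 in WT libraries, with overlap. Its call held without CKO1 (limma adjusted p 0.0419) and CKO3 (0.0179), and was lost without WT1 (0.0759), WT2 (0.0812), WT3 (0.0724), WT4 (0.0575), CKO2 (0.0752) or CKO4 (0.0854).

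Ccl2, or MCP-1, the main CCR2 ligand, was the second most abundant chemokine by its mean over all libraries (24.9 RPKM). It was at 8.27, 16.9, 27.4 and 27.0 RPKM in CKO and at 24.2, 25.4, 31.6 and 38.4 RPKM in WT. CKO3 and CKO4 lay inside the WT range, and CKO1 was lowest. The log2 change of -0.67 ± 0.33 did not pass (limma adjusted p 0.220), and it was -0.33 without CKO1. Ccl7, or MCP-3, which also acts on CCR2, was at 7.37, 6.72, 13.1 and 8.26 RPKM in CKO and at 13.5, 11.7, 13.6 and 16.2 RPKM in WT. Only CKO3 reached the WT range, and the log2 change of -0.62 ± 0.18 missed the threshold (limma adjusted p 0.0533). Without CKO3 it passed (0.00937). Ccl12, or MCP-5, a further mouse CCR2 ligand, was at 0.65 to 2.30 RPKM in CKO and 1.25 to 2.50 RPKM in WT, with a limma adjusted p of 0.483.

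Of the monocyte and macrophage markers, 1 of 13 tested was lower in CKO (Tyrobp, limma adjusted p 0.047) and 0 higher, with a median log2 change of -0.56. At an unadjusted p under 0.05, 8 were lower and 0 higher, and 12 of the 13 log2 changes were below 0. Of all tested genes, 5.74% were called lower in limma and 70.4% had a log2 change below 0. At an unadjusted p under 0.05, 22.7% of all tested genes were lower and 4.6% higher. Tyrobp kept its call only without CKO1 or CKO3 (up to 0.109 otherwise). The exception was Ly6c2, the marker of inflammatory monocytes, at 7.0 ± 2.94 RPKM in CKO and 6.24 ± 1.48 RPKM in WT, with a limma adjusted p of 0.877. Ccr2 and Ly6c2 are both marks of that cell type, and whether their changes differ from each other was not tested. No marker of this list was at 0 in every library.

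The other 2 ligands that passed act on receptors of eosinophils and of T cells. Ccl24, or eotaxin-2, a macrophage product that recruits eosinophils through CCR3, lies on chromosome 5 (135569937 to 135573049, minus strand). It was at 4.12, 5.29, 6.09 and 5.24 RPKM in CKO and at 6.16, 9.09, 9.18 and 11.2 RPKM in WT. The highest CKO library lay just below the lowest WT library, and the means were 5.18 ± 0.812 and 8.91 ± 2.07 RPKM (SD, n = 4), 1.72-fold higher in WT. The log2 change was -0.66 ± 0.16 (limma adjusted p 0.0328). It was called only without CKO3 (0.0319) or WT1 (0.0176). The adjusted p was 0.0533 without CKO1, 0.0756 without CKO2, 0.0771 without CKO4, 0.0724 without WT2, 0.0753 without WT3 and 0.0790 without WT4, and 0.0568 after median centring. Per 100 RPKM of monocyte and macrophage markers it was 1.54 to 2.14 RPKM in CKO and 1.37 to 2.42 RPKM in WT, with overlap. Ccl11, or eotaxin-1, a CCR3 ligand of stromal cells, was at 7.17, 11.9, 10.4 and 14.3 RPKM in CKO and at 13.8, 17.4, 11.0 and 18.2 RPKM in WT. Its groups overlapped, and the log2 change of -0.44 ± 0.20 did not pass (limma adjusted p 0.171).

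Ccl22, made by macrophages and dendritic cells and known for drawing regulatory and Th2 T cells through CCR4, had the largest fold of the 5. It lies on chromosome 8 (94745590 to 94751699, plus strand) and was at 0.678, 1.54, 1.49 and 0.192 RPKM in CKO and at 2.81, 3.77, 2.19 and 2.59 RPKM in WT. The groups did not overlap, and the lowest library, CKO4, rested on 11 reads. The WT mean (2.84 ± 0.668 RPKM, n = 4) was 2.91-fold the CKO mean (0.975 ± 0.655 RPKM), with a log2 change of -1.01 ± 0.23 and a limma adjusted p of 0.0264. Per 100 RPKM of monocyte and macrophage markers, mostly Lyz2, it was 0.0625 to 0.448 RPKM in CKO and 0.531 to 0.819 RPKM in WT. It was the only called member whose groups did not overlap on that scale. Only the called members, already chosen for lower CKO values, were put on it, so how often other genes separate there is unknown. The dendritic cell markers summed to 1.69 to 2.16 RPKM in CKO and 2.21 to 3.61 RPKM in WT, also without overlap. Among single markers this held only for Zbtb46, the most abundant (limma adjusted p 0.305), and Itgax, below the filter. The groups overlapped for Flt3, Clec9a, Siglech, Cd209a and Batf3. The part of these markers in the Ccl22 result was not tested. The call of Ccl22 was lost without WT1 (0.0677), WT2 (0.0675) or WT4 (0.0612), under limma-voom (0.0507) and when the pseudocount was 0.1 (0.0610). The other CCR4 ligand, Ccl17, was below 1 RPKM in every library, at a recovered length 2.85 times its annotated exon length.

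Cxcl13, the ligand of CXCR5 that organises B cell follicles, showed the largest ratio of means of all tested members and did not pass. It lies on chromosome 5 (95956951 to 95961068, plus strand). It was at 1.51, 1.40, 0.958 and 1.69 RPKM in CKO and at 5.49, 75.8, 28.7 and 8.73 RPKM in WT. All 4 WT libraries lay above all 4 CKO libraries, and the WT libraries differed widely among themselves. The means were 1.39 ± 0.311 and 29.7 ± 32.4 RPKM (SD, n = 4), 21.3-fold higher in WT, with a log2 change of -3.04 ± 0.76 and a limma adjusted p of 0.0600. Without WT2 the WT mean was 14.3 ± 12.6 RPKM (n = 3), 10.3-fold the CKO mean. The limma adjusted p fell under the threshold without WT1 (0.0437), without WT2 (0.0470, log2 change -2.38) and with a pseudocount of 0.1 (0.0393). It was also lower without both WT2 and WT3 (0.00045). That pair, the highest libraries for Cxcl13, was left out after the data were seen, and only WT1 and WT4 remained. Leaving out the extremes narrows the WT spread, so this last p-value gives no support of its own.

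WT2 and WT3, the highest libraries for Cxcl13, were also the libraries with B and plasma cell marker sums of 13.7 and 4.67 RPKM. WT1 and WT4 held 0.300 and 0.184 RPKM of these 8 markers, inside the CKO range of 0.174 to 0.584 RPKM, with Cxcl13 at 5.49 and 8.73 RPKM. The part of B cell content in the Cxcl13 difference was not tested. Without WT2 and WT3 the log2 change was -1.74. Cxcr5, the receptor on B cells, was listed at 17 reads in WT2 and at 0 to 4 reads in the other libraries.

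**Figure D3:**
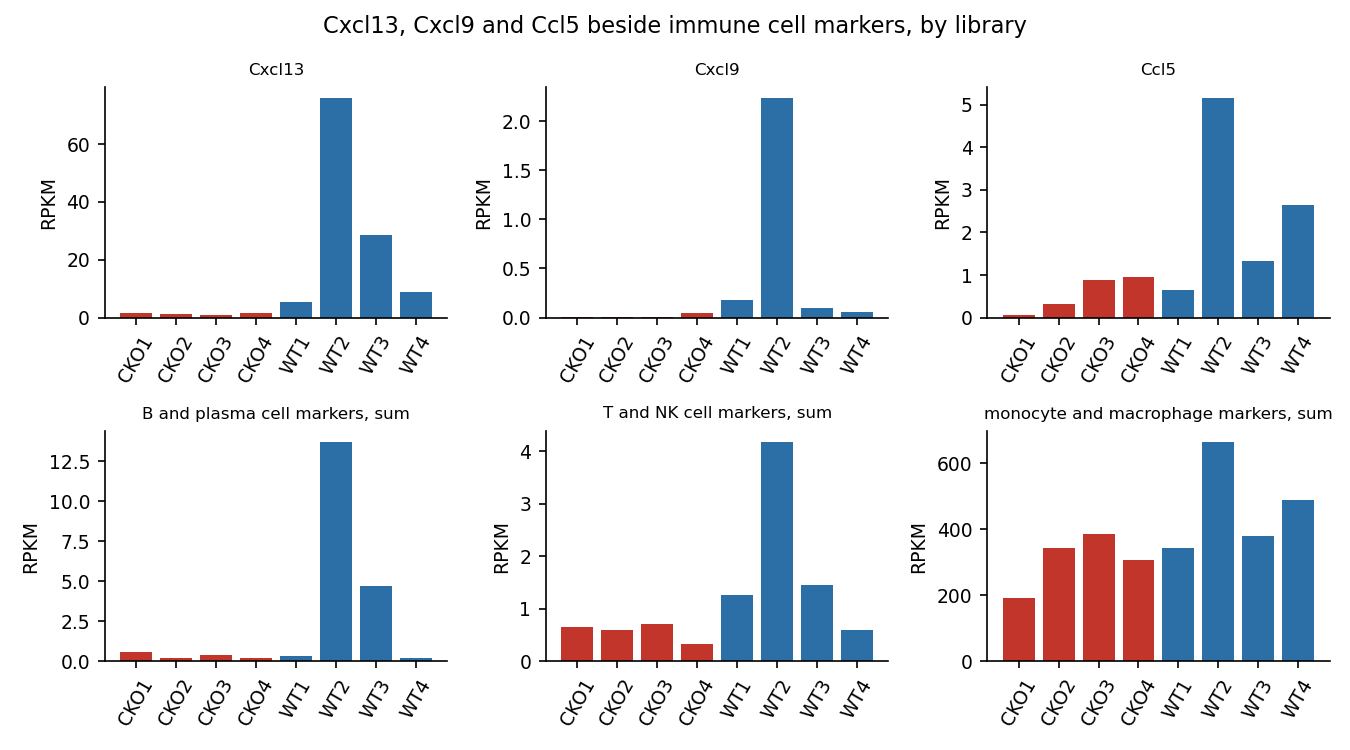
RPKM of Cxcl13, Cxcl9 and Ccl5 (top) and summed RPKM of immune cell markers (bottom) in each library; bars are single libraries, red for CKO and blue for WT, with a scale of its own in each panel. WT2 is the highest bar in all 6 panels, while WT1 and WT4 show Cxcl13 of 5.49 and 8.73 RPKM with B and plasma cell markers of 0.300 and 0.184 RPKM.

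The interferon-induced ligands of CXCR3, a receptor of T and NK cells, passed no test. Cxcl10 was at 2.42, 3.70, 5.86 and 3.22 RPKM in CKO and at 3.37, 8.17, 4.95 and 4.83 RPKM in WT, with overlapping groups (log2 change -0.39 ± 0.24, limma adjusted p 0.311). Cxcl9 was below the filter, at 1 to 4 reads in each CKO library and at 17, 208, 9 and 5 reads in WT1 to WT4. That is 0.01 to 0.0436 RPKM in CKO and 0.184, 2.23, 0.0992 and 0.0565 RPKM in WT. Its values did not overlap between groups, but those of CKO and WT4 differ by few reads and WT2 alone passed 1 RPKM.

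The CXCR2 ligands, which recruit neutrophils, had estimates on both sides of 0, and none passed. Cxcl5, an ELR chemokine of epithelia and stroma, was at 0.494, 1.35, 2.74 and 2.66 RPKM in CKO and at 5.56, 3.03, 4.99 and 2.66 RPKM in WT. CKO3 and CKO4 overlapped the WT range, and the log2 change of -0.90 ± 0.29 did not pass (limma adjusted p 0.0840). Cxcl1, or KC, a neutrophil chemokine induced early by NF-kappaB, was at 1.29, 0.762, 4.33 and 4.34 RPKM in CKO and at 1.35, 0.815, 1.27 and 0.447 RPKM in WT. CKO3 and CKO4 stood above all other libraries, and CKO1 and CKO2 lay within the WT range. The log2 change of 0.76 ± 0.37, the highest of any tested member, did not pass (limma adjusted p 0.217). Cxcl2, or MIP-2, was at 0.702, 1.48, 1.00 and 3.04 RPKM in CKO and at 0.957, 1.61, 2.07 and 1.30 RPKM in WT, with a log2 change of -0.02 (limma adjusted p 0.967) that turned to 0.08 after median centring. Cxcl3 stayed below the filter, at 0.144, 0.400, 0.317 and 1.28 RPKM in CKO and 0.987, 0.306, 1.76 and 0.806 RPKM in WT. Whether Cxcl1 and Cxcl5 differ in their change was not tested.

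The summed CXCR2 ligands were 6.58 ± 4.0 RPKM in CKO and 7.48 ± 2.37 RPKM in WT (SD, n = 4), with overlap. Cxcr2, the receptor of neutrophils, was at 0.506, 0.653, 1.28 and 1.62 RPKM in CKO and at 1.71, 1.89, 1.48 and 1.06 RPKM in WT. CKO3 and CKO4 overlapped the WT range, and the change did not pass (log2 change -0.36 ± 0.18, limma adjusted p 0.214). Neutrophil markers summed to 15.1 to 52.3 RPKM in CKO and 39.9 to 86.2 RPKM in WT. In limma 0 of the 6 tested passed, with 2 lower and 0 higher at an unadjusted p under 0.05. Of all tested genes, 22.7% were lower and 4.6% higher at that p. The 2 were S100a9, with a log2 change of -1.24 (limma adjusted p 0.0763), and S100a8, with -1.03 (0.0773). They were also the most abundant markers of the list in every library, so they led the sum. The other tested markers had log2 changes of -0.44 to -0.06 (limma adjusted p 0.275 to 0.891), and the median of the list was -0.29.

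Cxcl1 and Cxcl2 are neighbours, with 10755 bases between them. Their 250 upstream bases are shown because they hold the kappaB motif, as does Cxcl10. The windows are Cxcl1 chr5:90890995-90891244 and Cxcl2 chr5:90903649-90903898, both plus strand, and Cxcl10 chr5:92348890-92349139, minus strand. That of Cxcl13, chr5:95956689-95956938, plus strand, held none of the 4 motifs. All are RefSeq sequences of GRCm38.p6, 5′ to 3′ on the strand of the gene, with every motif match in capitals.
Cxcl1: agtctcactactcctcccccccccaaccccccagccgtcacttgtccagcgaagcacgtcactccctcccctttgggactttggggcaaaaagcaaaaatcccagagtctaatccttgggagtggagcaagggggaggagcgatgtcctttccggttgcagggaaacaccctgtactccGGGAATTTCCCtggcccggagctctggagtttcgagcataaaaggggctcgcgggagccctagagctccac
Cxcl2: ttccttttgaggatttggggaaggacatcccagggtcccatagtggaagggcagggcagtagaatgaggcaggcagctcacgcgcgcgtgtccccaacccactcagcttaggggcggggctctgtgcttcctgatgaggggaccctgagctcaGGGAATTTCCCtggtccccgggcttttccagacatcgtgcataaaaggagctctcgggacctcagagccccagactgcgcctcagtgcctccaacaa
Cxcl10: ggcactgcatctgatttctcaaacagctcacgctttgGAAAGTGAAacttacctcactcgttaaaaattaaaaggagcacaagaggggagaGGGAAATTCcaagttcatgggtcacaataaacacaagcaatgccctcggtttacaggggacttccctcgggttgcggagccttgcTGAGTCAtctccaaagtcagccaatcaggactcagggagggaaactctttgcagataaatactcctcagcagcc
Cxcl13: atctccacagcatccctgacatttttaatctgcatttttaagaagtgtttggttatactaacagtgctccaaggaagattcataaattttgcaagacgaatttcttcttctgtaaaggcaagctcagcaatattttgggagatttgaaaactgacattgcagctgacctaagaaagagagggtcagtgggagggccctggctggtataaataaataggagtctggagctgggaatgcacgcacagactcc

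Cxcl1 and Cxcl2 carried the same stretch of capitals, in which 2 overlapping kappaB matches lie at -71 to -61 in Cxcl1 and -97 to -87 in Cxcl2, counted from the RefSeq start. In Cxcl10 the ISRE match was at -213 to -205, the kappaB match at -159 to -151 and the AP-1 match at -74 to -68. Of the 41 members with a window, 7 held a kappaB match (Cxcl1, Cxcl2, Cxcl3, Cxcl9, Cxcl10, Ccr3 and Cxcr2), against 3.23% of all 32851 promoter windows of that length. ISRE was in 7 members (Ccl3, Ccl19, Cxcl9, Cxcl10, Cxcl14, Ccr2 and Cxcr1; 7.13% of all windows), AP-1 in 4 (Ccl27a, Ccr3, Ccr4 and Cxcl10; 4.46%) and PU.1 in 1 (Cxcr3; 2.44%). In Cxcl1, Cxcl2 and Cxcl10 no match of one motif overlapped one of another. A match describes letters in this window and says nothing of binding.

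Ligands linked to tissue upkeep and homing passed no test. Cxcl16, a membrane-bound ligand of CXCR6, was at 9.13, 12.5, 12.3 and 13.3 RPKM in CKO and at 12.3, 12.8, 11.9 and 12.2 RPKM in WT. CKO1 was the only library below 11.9 RPKM. The log2 change of -0.07 ± 0.12 did not pass (limma adjusted p 0.767) and turned to 0.04 after median centring. Cxcl14, a chemokine of resting epithelia and stroma, was at 4.53 ± 0.987 RPKM in CKO and 4.09 ± 0.802 RPKM in WT (SD, n = 4; limma adjusted p 0.666). Ccl21a, which guides cells bearing CCR7 into lymphatics, was at 2.58 ± 0.342 and 2.93 ± 0.974 RPKM (n = 4; limma adjusted p 0.732). Ccl21a and Ccl21b are near-identical copies, so how reads were split between them is uncertain. Cxcl12, the stromal ligand of CXCR4, was at 0.919, 1.18, 1.75 and 1.04 RPKM in CKO and at 1.65, 2.89, 1.69 and 1.26 RPKM in WT, with overlap (log2 change -0.35 ± 0.17, limma adjusted p 0.195). Cx3cl1, or fractalkine, the membrane-bound ligand of CX3CR1, was below the filter, at 0.744, 0.870, 0.932 and 1.02 RPKM in CKO and 0.739, 0.971, 0.591 and 1.06 RPKM in WT, with overlap.

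**Figure D4:**
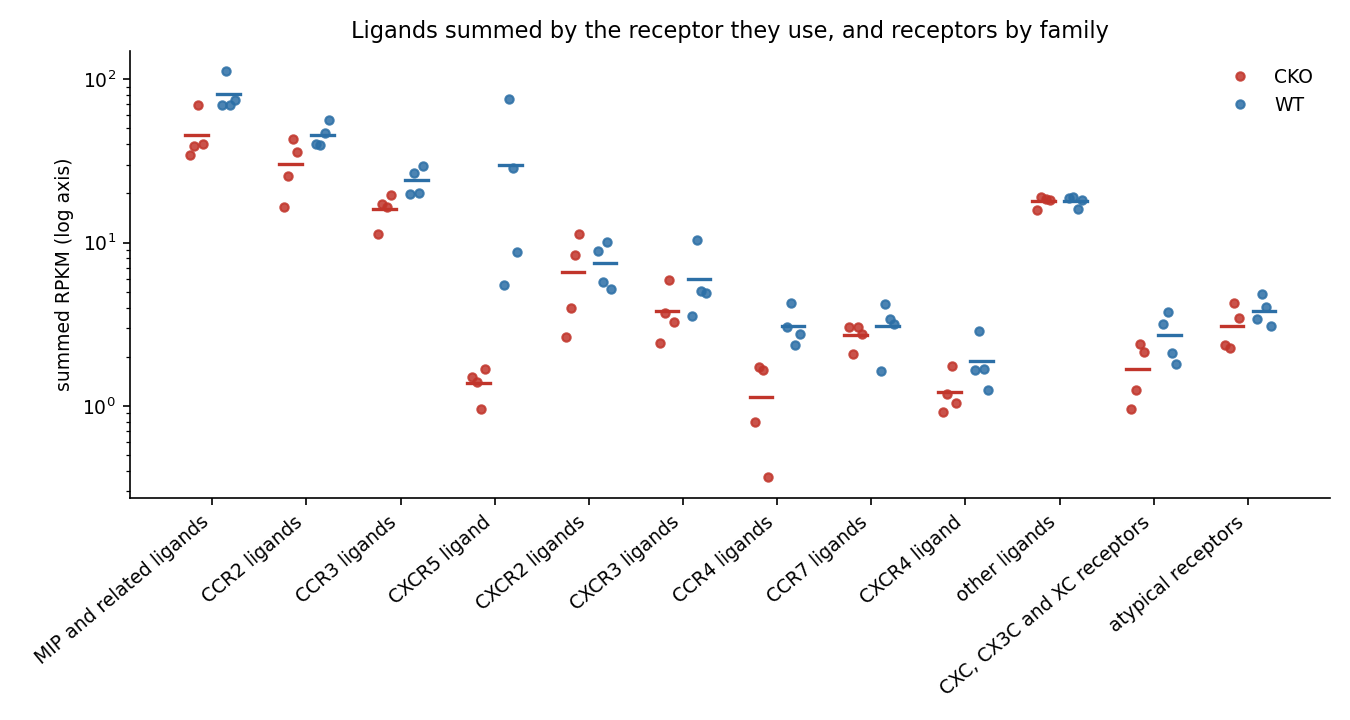
Summed RPKM (log axis) of ligands grouped mainly by the receptor they use and of receptors by family; points are libraries, red for CKO and blue for WT, and lines are group means. The groups do not overlap for the MIP and related ligands and the ligands of CCR3, CCR4 and CXCR5, and overlap in the other sets plotted.

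Summed by group, the MIP and related ligands and the ligands of CCR3 and of CCR4 were below every WT library in every CKO library. The CCR3 ligands summed to 11.3 to 19.5 RPKM in CKO and 19.9 to 29.4 RPKM in WT, and the CCR4 ligands to 0.365 to 1.72 and 2.35 to 4.28 RPKM. The CCR2 ligands summed to 16.6 to 42.8 RPKM in CKO and 39.7 to 56.1 RPKM in WT, with CKO3 inside the WT range. The remaining ligands, chiefly Cxcl16 and Cxcl14, summed to 17.9 ± 1.37 RPKM in CKO and 18.0 ± 1.36 RPKM in WT (SD, n = 4). Each sum is led by 1 or 2 genes described above, so it adds no independent comparison.

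Among the 5 tested receptors 1, Ccr2, passed. Ccr1, the receptor of Ccl6 and Ccl9 on monocytes and neutrophils, was at 2.81, 4.92, 5.83 and 5.92 RPKM in CKO and at 6.30, 9.40, 7.02 and 6.79 RPKM in WT. The groups did not overlap, with CKO4 just below WT1. Its log2 change of -0.54 ± 0.19 did not pass (limma adjusted p 0.0930).

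Ackr3, a scavenger of CXCL12 on vessels and stroma, was lower in level than Ccr1 and Ccr2. It was at 2.08, 2.15, 4.16 and 3.42 RPKM in CKO and at 3.15, 4.53, 3.82 and 3.05 RPKM in WT, with overlap (log2 change -0.25 ± 0.18, limma adjusted p 0.373). Cxcr4, the CXCL12 receptor of most leukocytes, was at 0.132, 0.324, 0.662 and 0.385 RPKM in CKO and at 0.764, 0.639, 0.290 and 0.308 RPKM in WT, below the filter. Cx3cr1, a receptor of patrolling monocytes and resident macrophages, was at 0.304, 0.225, 0.429 and 0.135 RPKM in CKO and at 0.603, 0.631, 0.273 and 0.394 RPKM in WT, also below it. The groups overlapped for both.

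**Figure D5:**
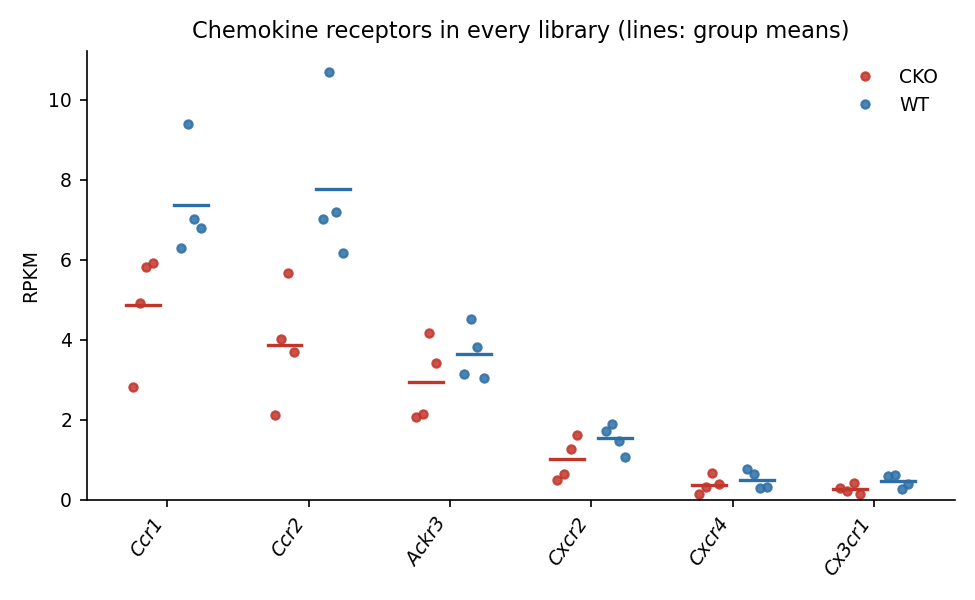
RPKM of Ccr1, Ccr2, Ackr3, Cxcr2, Cxcr4 and Cx3cr1 in every library; points are libraries, red for CKO and blue for WT, and lines are group means. The groups do not overlap for Ccr1 and Ccr2, and WT2 is the highest library for Ccr1, Ccr2, Ackr3, Cxcr2 and Cx3cr1.

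The remaining members were below the filter. They ranged from members with reads in every library, such as Cxcr4 (13 to 70 reads), to members near the limit of detection. In all, 25 members were under 1 RPKM in every library. The 9 ligands among them were Ccl17, Ccl19, Ccl20, Ccl21b, Ccl25, Ccl27a, Ccl28, Cxcl17 and Xcl1, with a highest value of 0.578 RPKM. The 16 receptors were Cxcr4, Cx3cr1, Ccr3, Ccr4, Ccr6, Ccr7, Ccr8, Ccr9, Ccr10, Cxcr1, Cxcr3, Cxcr5, Cxcr6, Xcr1, Ackr2 and Ackr4, with a highest value of 0.764 RPKM. So the receptors of Ccl24 (Ccr3) and Ccl22 (Ccr4) were scarce in both groups at this depth. For a transcript of 1 kb, 3 reads equalled 0.0873 to 0.0985 RPKM. Ccr9, Ccr10 and Cxcr1 were under 3 reads in every library. Ccl21b, Ccr4, Ccr8 and Xcl1 were above 0 in 1 library only, and their reads there were not recovered (Xcl1 was at 0.24 RPKM in WT2).

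Some of the genes around the chemokines passed the test, as did 7.17% of all tested genes. Of the downstream signalling genes tested (30 of 42 listed), 0 passed in limma, with a median log2 change of -0.18. At an unadjusted p under 0.05, 10 were lower and 0 higher, against 22.7% and 4.6% of all tested genes. Small p-values were those of the small GTPase Rap1b (log2 change -0.43, limma adjusted p 0.0587), the G protein subunit Gnb1 (-0.35, 0.0736) and Rap1a (-0.30, 0.113). Of the other genes that bind or process chemokines, 10 of 12 were tested, and 1 was lower, 0 higher, with a median of -0.24. That gene, Sdc4, a heparan sulfate proteoglycan that can hold chemokines at the cell surface, was at 28.5 ± 2.71 RPKM in CKO and 44.1 ± 5.13 RPKM in WT (log2 change -0.61, limma adjusted p 0.0118), without overlap. It passed in each of the 8 omissions of a library, but not without WT2 and WT3 together. Pf4, the CXC chemokine CXCL4 of platelets, was at 3.99 ± 1.12 and 8.01 ± 2.8 RPKM (log2 change -0.83, limma adjusted p 0.0575), and Cd74, the receptor of MIF, had a log2 change of -1.04 (0.0763). The sheddases Adam10 and Adam17, which release Cx3cl1 and Cxcl16 from the membrane, had log2 changes of -0.28 and -0.21 (limma adjusted p 0.257 and 0.34).

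Of the genes that induce chemokine transcripts or shorten their life, 15 of 22 listed were tested, and 1 was higher and 1 lower, with a median of -0.14. Of all tested genes, 1.42% were called higher and 5.74% lower in limma. Zfp36, or tristetraprolin, which speeds the decay of mRNAs with AU-rich ends and is itself an early stress-induced gene, was at 28.0 ± 7.0 RPKM in CKO and 16.3 ± 2.58 RPKM in WT (SD, n = 4). Its log2 change was 0.72 (limma adjusted p 0.0246), and the groups did not overlap. Irf1, an interferon-induced factor that drives Cxcl9 and Cxcl10, was at 2.42 ± 0.521 RPKM in CKO and 4.02 ± 0.723 RPKM in WT (log2 change -0.56, limma adjusted p 0.0392). Zfp36 was called in 5 of the 8 omissions, lost without WT1, WT3 or WT4 (highest adjusted p 0.0706), and Irf1 in 1, without CKO3 (highest 0.0978). Nfkbiz (0.28, limma adjusted p 0.226), Relb (-0.21, 0.286), Myd88 (-0.18, 0.32) and Rela (0.22, 0.329), all of NF-kappaB signalling, did not pass.

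Lists of the fixed cells of the tissue gave at most 1 call each, and 7.17% of all tested genes were called in limma. At an unadjusted p under 0.05, 22.7% of all tested genes were lower and 4.6% higher. Duct markers were mostly lower and islet markers mostly higher. Of the 8 tested fibroblast and stellate cell markers and the 8 acinar markers 0 passed in limma (0 also at an unadjusted p under 0.05), with median log2 changes of -0.07 and 0.07. In the endothelial list 1 of 5 tested was lower, Kdr (-0.55, limma adjusted p 0.0278), with a median of 0.01. In the duct list 1 of 6 was lower, Sox9 (-0.87, limma adjusted p 0.0212), with 5 lower at an unadjusted p under 0.05, a median of -0.51 and sums of 340.6 to 623.4 RPKM in CKO against 644.3 to 754 RPKM in WT, without overlap. In the islet list 1 of 7 was higher, Gcg (0.55, limma adjusted p 0.0451), with 5 higher at an unadjusted p under 0.05 and a median of 0.49. Sox9 lost its call without CKO4, WT1 or WT3 (adjusted p up to 0.0597), and Kdr without CKO2, CKO4, WT1 or WT2 (up to 0.083). Gcg kept its call only without CKO1 or WT2 (up to 0.121 otherwise). The part of these cell types in the chemokine levels was not tested.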

How the data were processed

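RNA from whole pancreas of 8 cerulein-treated mouse samples (4 CKO, 4 WT, grouped by the labelled genotype) was sequenced on an Illumina instrument, per the labels' protocols. The reference build was mm10, per the submitters' processing notes. For the aligner, counter, annotation, filters and use of strand, the sources used here give nothing. The authors deposited 1 table of RPKM values for 16888 genes, with no unit in its header, so the unit was read from the values. An unnamed column was not used.

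Library totals and gene lengths were recovered from the steps between low RPKM values. Of 16068 genes above 0 in at least 2 libraries, 16055 (99.92%) gave whole reads in all libraries, within 5e-05 reads plus a relative rounding allowance. Totals were 30469002 to 34359802 reads, of which the genes held 99.95% or more. The tested members had 11 to 3559 reads per library, and 50 of the 54 had reads recovered. Floors of 3 reads cover counting error only.

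Group differences were tested with limma 3.58.1 in R 4.3.3 on log2(RPKM + 1), over the 8513 genes that reached 1 RPKM in 4 or more libraries. The model held group alone, with trended and robust empirical Bayes variances. P-values were adjusted by Benjamini-Hochberg across these genes, and 0.05 was the threshold. Folds are ratios of mean RPKM. Gene positions are from GENCODE M21, and promoter sequences from RefSeq (GRCm38.p6). Python 3.11.15, NumPy 2.4.6, pandas 2.3.3 and Matplotlib 3.10.9 were used. The recovery and the fit were tested on simulated data.

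Alternatives were a pseudocount of 0.1, no filter, limma-voom on recovered reads, variances without a trend, median centring, totals without acinar enzymes, the replicate number as a block, and each library left out. Leaving out WT2 and WT3 together was added after seeing the data. The members, the marker and pathway lists and the axes were chosen with earlier results of these data known. Tested members are named, as are untested members that reach 1 RPKM, except that a few results, though counted, are not reported here. Values in every library are given for members past an unadjusted p of 0.05, the most abundant, and the textbook monocyte, neutrophil and stromal axes. Of the other lists, genes past the threshold and up to 4 more by p are named. Ly6c2, and single-library values of Cxcl10, Ccl5, Ccl8, Cxcl9 and Cxcl3, were added after their values were seen.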

Additional observations from a re-analysis of the deposited data

Results flagged for a closer look

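In groups of 4, a library was marked when its gap to the nearest other library exceeded Dixon's 95% critical value as a share of the range of the group. Of 62 group tests over 31 members, 4 marked a library, and chance alone gives about 1 in 20, or 3.1. Ccl6 was marked in CKO3, at 40.1 RPKM against 18.2 to 21.4 RPKM in the other CKO libraries, and in WT2, at 62.9 RPKM against 37.9 to 41.4 RPKM. Cxcl9 was marked in WT2, at 2.23 RPKM, with WT1, WT3 and WT4 between 0.0565 and 0.184 RPKM, and WT2 also held the highest T and NK cell marker sum. It was marked too in CKO4, at 0.0436 RPKM against 0.01 to 0.0101 RPKM, a difference between 4 reads and 1 read.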

How the results depend on the processing

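Of 379 log2 changes recomputed for the 24 tested members under 16 alternatives, 314 kept their direction and their side of the threshold, 42 kept the direction and lost the call, 6 gained a call and 17 changed sign. The sign changes were those of members near 0. Cxcl2 was 0.08 after median centring, 0.03 with totals without acinar enzymes, 0.19 without WT2 and WT3, and -0.27 to 0.15 over single omissions. Cxcl16 was 0.04 after median centring, 0.01 with totals without acinar enzymes and -0.12 to 0.04 over single omissions. Ccl4 was -0.11 to 0.24 over single omissions (among them -0.10 and -0.07 without WT3 and WT4) and -0.03 without WT2 and WT3, Ccl21a -0.29 to 0.01 over single omissions and 0.17 without WT2 and WT3, and Cxcl14 -0.02 without WT2 and WT3. Single omissions of Cxcl2 that turned it gave 0.15, 0.07, 0.01 and 0.09.

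Leaving out 1 library gave 0 to 5 ligands and 0 to 1 receptors past the threshold, and 185 to 686 genes in all. Without a filter the counts were 0 ligands and 0 receptors (8 and 3 at an unadjusted p under 0.05 in limma), and with limma-voom 1 ligand. Without WT2 and WT3 they were 1 ligand, 0 receptors (1 at an unadjusted p under 0.05) and 83 genes, with only WT1 and WT4 left in their group. Without WT4, 0 ligands passed (8 at an unadjusted p under 0.05). The other settings gave 423 to 633 genes. Median centring moved the split of calls from 121 higher and 489 lower to 305 and 267, and totals without acinar enzymes to 239 and 394, while the median over tested members went from -0.42 to -0.32 and -0.35, and that over all genes from -0.12 to -0.02 and -0.06.

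With the replicate number as a block, 548 genes, the same 4 ligands and 1 receptor passed, plus Ccl7. Whether equal numbers mark paired libraries could not be settled. Same-numbered libraries had correlations of -0.123, -0.315, 0.142 and 0.0331 in their deviations from the group means, and only CKO3 correlated best with its own number. Deviations sum to 0 within each group of 4, which holds such correlations around 0, so they cannot exclude pairing. Members that did not pass moved by over 1.5 times in some single omissions: Ccl2 was -0.33, Ccr1 -0.34, Ccl11 -0.28, Cxcl10 -0.25, Cxcr2 -0.23, Ackr3 -0.15 and Ccl12 -0.16 without CKO1, Cxcl12 and Cxcl10 were each -0.20 without WT2, and Ccl12 was -0.09 without CKO4. Ccl3 met the filter in 4 of the 8 omissions. Depth limits the members under 1 RPKM in every library. They were tested only in the fit without the filter, where none passed, which does not show that they were unchanged.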
